A study of Mus musculus with 9 samples.

Results

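Creg2, Npy, Slc1a6, Fam26f, Vat1l and Stra6l are 6 protein-coding genes that were read at most 4 times over 3 sham-operated mouse hearts and at least 291 times over the 3 hearts of 1 of the groups with myocardial infarction (MI). They were chosen by these read counts, from a table of 24964 genes, so their levels are described below with no test. All 6 were found in the table by symbol and all 6 passed the filter on low counts, which kept 14347 genes. The study took hearts from 9 male C57BL/6JR mice aged 8 weeks. The 6 operated mice had the left anterior descending coronary artery tied off below the left auricle, and 3 hearts each were collected 7 days (MI 7 d) and 28 days (MI 28 d) later. The 3 sham mice had the same surgery without the ligature; the day on which their hearts were taken, and which part of each heart was used, are not stated in the descriptions at hand. RNA was read in bulk, as total RNA from heart tissue, with 1 library per mouse.

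The label under which the 6 genes were grouped, near-silent in sham and induced after infarction, described 5 of them in every MI 7 d heart. Creg2, Npy, Slc1a6, Fam26f and Stra6l stood at 3.22 to 16.4 CPM (read counts scaled to a common library size) in all 3 MI 7 d libraries and were 4.08 to 73.3 times lower at MI 28 d. Vat1l went another way. It was at 0.241 to 2.12 CPM at MI 7 d, and 91.6% of its summed MI 28 d level lay in 1 library, MI 28 d replicate 3, at 48.6 CPM.

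The genes belong to unrelated families, most of them better known from the nervous system or the immune system than from the heart. Npy encodes neuropeptide Y, a transmitter that sympathetic nerves store with noradrenaline and that narrows blood vessels through G protein-coupled receptors. Slc1a6 encodes an excitatory amino acid transporter that carries glutamate into cells and is best known from Purkinje cells of the cerebellum. Creg2 encodes a secreted glycoprotein related to the lysosomal protein Creg1. Fam26f, now also named Calhm6, encodes a membrane protein of the calcium homeostasis modulator (CALHM) family that is induced by interferon in immune cells. Stra6l, also named Rbpr2, encodes a membrane receptor for retinol-binding protein, known from vitamin A uptake in liver and intestine. Vat1l encodes a relative of Vat1, a protein of the quinone oxidoreductase type, and its function is little known.

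The promoters of 3 of the genes are shown because they differ most in base composition. Each sequence holds the 250 bases before an annotated transcript start in RefSeq (build GRCm38.p6), 5′ to 3′ on the gene's own strand, with matches to the motifs named below in capitals. The Fam26f window lies at chr10:34127973-34128222 on the minus strand, the Npy window at chr6:49822460-49822709 on the plus strand and the Slc1a6 window at chr10:78780246-78780495 on the plus strand.
Fam26f: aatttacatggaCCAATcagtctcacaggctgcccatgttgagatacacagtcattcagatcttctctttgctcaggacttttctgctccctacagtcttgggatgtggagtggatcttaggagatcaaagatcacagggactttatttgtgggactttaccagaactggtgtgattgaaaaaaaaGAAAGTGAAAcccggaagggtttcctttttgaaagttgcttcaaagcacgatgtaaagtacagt
Npy: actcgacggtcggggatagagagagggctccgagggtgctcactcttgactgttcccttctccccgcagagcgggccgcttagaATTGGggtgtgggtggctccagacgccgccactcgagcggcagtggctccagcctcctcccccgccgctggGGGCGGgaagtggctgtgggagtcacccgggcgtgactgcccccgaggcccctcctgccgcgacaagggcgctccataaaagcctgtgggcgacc
Slc1a6: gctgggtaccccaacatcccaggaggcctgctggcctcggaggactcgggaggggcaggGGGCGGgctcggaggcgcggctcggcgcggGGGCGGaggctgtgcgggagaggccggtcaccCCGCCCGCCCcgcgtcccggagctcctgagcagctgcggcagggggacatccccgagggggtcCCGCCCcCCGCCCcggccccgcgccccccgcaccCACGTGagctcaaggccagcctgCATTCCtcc

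The Slc1a6 window held 78.8% G and C and 26 CpG dinucleotides, and the Npy window 69.2% and 21. The Fam26f window held 42% and 2. Over all 32851 windows of the same length the medians were 52.4% and 6, so Slc1a6 and Npy lay at the 98.3 and 89.6 percentiles of GC content and Fam26f at the 15.9 percentile. The windows of Creg2, at 56% G and C with 12 CpG, and Vat1l, at 51.6% with 10, were closer to the median. Stra6l had 2 windows, at 56.4% and 57.2%, with 4 and 3 CpG. All 6 genes matched the table, Fam26f under the symbol Calhm6.

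Both strands of each window were searched for the letters of 10 motifs. In Fam26f the capitals mark an interferon response element (GAAA, any 2 bases and GAAA, found in 2.98% of all windows), read as GAAAGTGAAA with its first base 64 bases before the start, and a CCAAT box (CCAAT, 33.8% of windows). In Npy they mark a GC box (GGGCGG, 32.7% of windows) and a CCAAT box on the opposite strand. In Slc1a6 they mark 6 GC boxes, of which a pair overlap, an E-box (CACGTG, 6.02%) and, on the opposite strand, a TEAD site (GGAATG, 12.6%). Stra6l held a TATA box on the opposite strand (TATAAA, 12.4% of windows) and a GC box, while Creg2 and Vat1l held no match to any of the motifs. The other motifs had no match in any of the 6 genes: the GAS element (TTCNNNGAA, 7.02% of windows), the AP-1 site (TGANTCA, 6.75%), the cyclic AMP response element (TGACGTCA, 1.55%) and the REST half-site (TTCAGCACC, 0.301%). These are matches of letters, and no file here measures binding at them.

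Library totals were 12351525 to 13629120 assigned reads in sham, 18355720 to 19238101 at MI 7 d and 15300344 to 15770389 at MI 28 d, so 3 reads over a whole group correspond to 0.0878 CPM in sham, 0.0486 at MI 7 d and 0.0619 at MI 28 d. CPM were scaled by trimmed means of ratios between libraries (TMM). Replicates in sham differed little beyond sampling noise (chi-square over degrees of freedom 1.67 to 1.80), those at MI 7 d and MI 28 d far more (18.8 to 71.2). The tissue carried its label: 7 cardiomyocyte markers summed to 93500 to 96500 CPM in sham, 16000 to 20700 at MI 7 d and 34800 to 57500 at MI 28 d. Libraries differed in 2 further ways. MI 7 d replicate 3 and MI 28 d replicates 1 and 3 held 122 to 217 CPM of the adipocyte gene Adipoq. MI 28 d replicate 3 held 783 CPM of 6 summed mesothelial markers, against 113 and 135 in the other MI 28 d libraries.

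**Figure D1:**
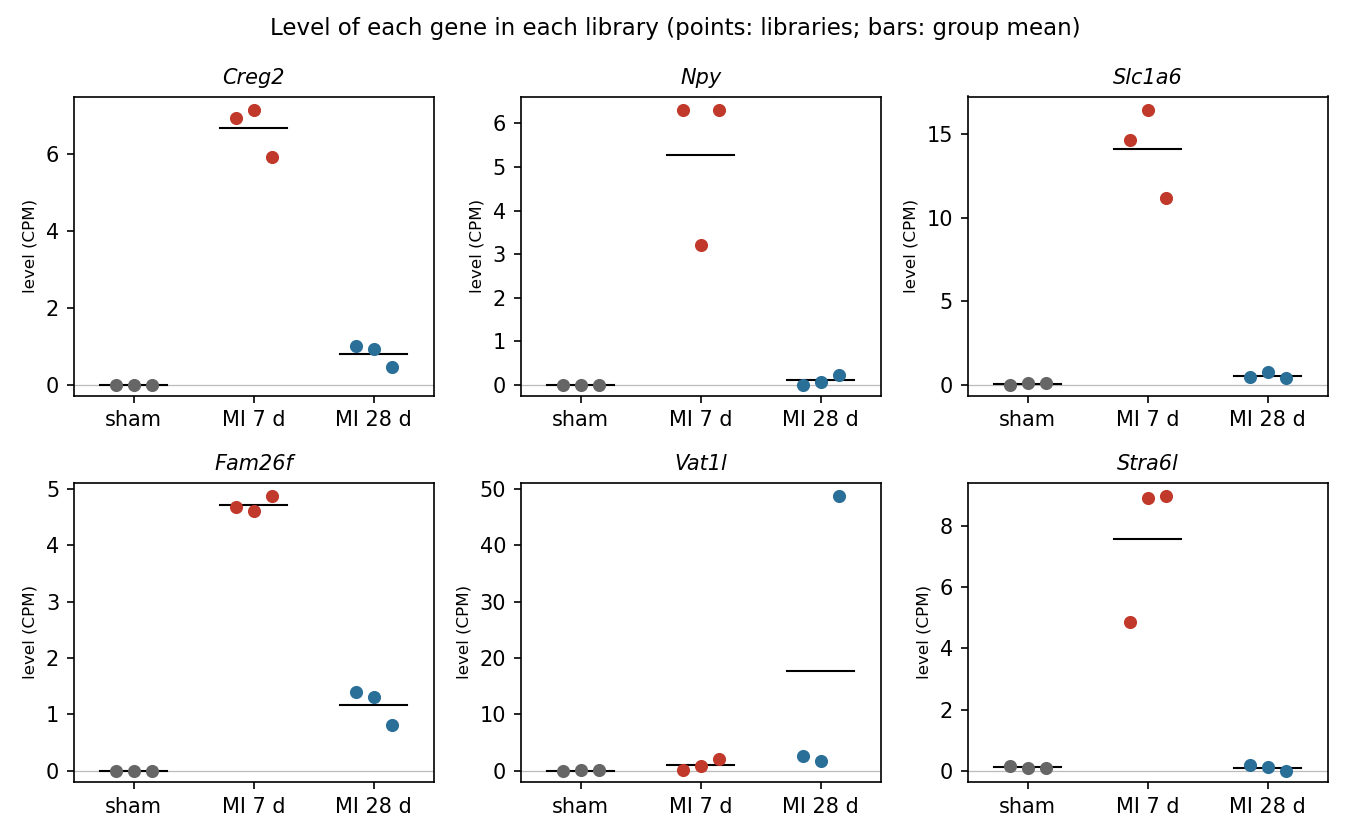
Level of each of the 6 genes in CPM (linear axes, a separate scale for each gene) in every library; points are libraries in the order of replicates 1 to 3 and bars are group means. Creg2, Npy, Slc1a6, Fam26f and Stra6l are highest in the 3 MI 7 d libraries, and Vat1l is highest in MI 28 d replicate 3 at 48.6 CPM.

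Slc1a6 was the most read of the genes at MI 7 d. It was counted 0, 1 and 1 times in the 3 sham libraries, 304, 332 and 233 times at MI 7 d, and 7, 12 and 7 times at MI 28 d. No MI 7 d library overlapped any other group, and every MI 28 d library lay above every sham library. The level was 14.1 ± 2.65 CPM (SD, n = 3) at MI 7 d and 0.538 ± 0.181 at MI 28 d. The MI 7 d level was 240.4 times that of sham, with a 95% counting interval of 66.3 to 1988 that is wide because sham held 2 reads, and 159.7 times without sham replicate 1. The MI 28 d level was 9.17 times that of sham (2.30 to 79.7), or 6.09 without sham replicate 1, and 26.2-fold lower than at MI 7 d (17.8 to 40.4). These intervals, here and below, are exact and cover counting error only, not the spread between mice. In bulk tissue a change in the number of cells that express a gene cannot be told apart from a change in RNA per cell.

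Creg2 had no read in any sham library. It was counted 144, 144 and 123 times at MI 7 d and 15, 15 and 8 times at MI 28 d, so the 3 groups did not overlap. Its level was 6.66 ± 0.648 CPM (SD, n = 3) at MI 7 d, with the highest library 1.2 times the lowest, and 0.797 ± 0.290 CPM at MI 28 d. Against a floor of 3 reads over the sham group, MI 7 d was at least 75.8-fold higher and MI 28 d at least 8.93-fold higher, bounds that fall to 49.5 and 5.84 without sham replicate 3. The level at MI 28 d was 8.48-fold lower than at MI 7 d (6.08 to 12.2).

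Fam26f had no read in sham either, and it was the most even of the genes after infarction. Its counts were 97, 93 and 101 at MI 7 d and 21, 21 and 14 at MI 28 d, again with no overlap between groups. The level was 4.71 ± 0.134 CPM (SD, n = 3) at MI 7 d, where the highest library was 1.06 times the lowest, and 1.17 ± 0.313 CPM at MI 28 d. MI 7 d was at least 53.7-fold and MI 28 d at least 13.2-fold higher than sham, or 35.1 and 8.61 without sham replicate 3. The level at MI 28 d was 4.08-fold lower than at MI 7 d (3.05 to 5.53), the smallest drop among the 5 genes that were highest at MI 7 d.

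Npy and Stra6l were back near the sham level at MI 28 d. Npy was counted 0 times in each sham library, 131, 65 and 131 times at MI 7 d, and 0, 1 and 4 times at MI 28 d. MI 7 d replicate 2, at 3.22 CPM, was below the 6.30 CPM of replicates 1 and 3, and it still lay above every sham and MI 28 d library. The Npy level was 5.28 ± 1.78 CPM (SD, n = 3) at MI 7 d, at least 60.3-fold higher than in sham. At MI 28 d it was 51.3-fold lower than at MI 7 d (21.8 to 159). Without MI 28 d replicate 3, which held 4 of the 5 reads, the MI 28 d level was 0.00606 of the MI 7 d level. Sham and MI 28 d overlapped at 0.

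Stra6l was the gene with the most sham reads, 2, 1 and 1. At MI 7 d it was counted 101, 180 and 186 times, and at MI 28 d 3, 2 and 0 times. Its MI 7 d level of 7.57 ± 2.35 CPM (SD, n = 3), lowest in replicate 1 at 4.86, was 64.6 times that of sham (25.1 to 238). The MI 28 d libraries lay on both sides of the sham libraries, with a ratio of 0.882 (0.190 to 4.44) that was 0.512 without MI 28 d replicate 1 and 1.37 without MI 28 d replicate 3. The drop from MI 7 d was 73.3-fold (31.2 to 227). As a share of the MI 7 d level, MI 28 d stood at 0.0137 with all libraries, 0.00792 without MI 28 d replicate 1 and 0.0212 without MI 28 d replicate 3. A difference between MI 28 d and sham was therefore not detectable at this depth for Stra6l.

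Vat1l was counted 0, 1 and 1 times in sham, 5, 16 and 44 times at MI 7 d, and 41, 28 and 839 times at MI 28 d. Its libraries at MI 7 d spanned 8.80-fold and those at MI 28 d 28-fold, against 1.06 to 1.96-fold at MI 7 d for the 5 other genes. The 2 infarct groups overlapped, since MI 7 d replicate 3 (2.12 CPM) lay above MI 28 d replicate 2 (1.74 CPM). The ratio to sham was 18.0 at MI 7 d (4.78 to 152) and 320.2 at MI 28 d (88.4 to 2648). Without MI 28 d replicate 3 the second ratio was 37.8 (10.1 to 318), and the ratio of MI 28 d to MI 7 d went from 17.8 (13.8 to 23.3) to 2.10 (1.48 to 3.00). Other single libraries moved the ratios too. MI 7 d replicate 3 held 44 of the 65 reads at MI 7 d, and without it the MI 7 d ratio to sham was 8.75 and the ratio of MI 28 d to MI 7 d was 36.6. Without sham replicate 1, which had no read, the ratios to sham were 11.95 at MI 7 d and 212.8 at MI 28 d. Without the 3 libraries rich in Adipoq, MI 28 d was 3.39 times MI 7 d.

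Across the 6 genes, all MI 7 d libraries lay above all sham libraries in 6 of 6, all MI 28 d libraries above all sham libraries in 4 of 6, and all MI 28 d libraries below all MI 7 d libraries in 5 of 6. The genes were picked on these contrasts, so nothing is read from those counts. The share of all genes whose libraries were separated in this way was not computed. The shares below are of calls by a test, which is another measure. Over all 14347 genes tested with edgeR's quasi-likelihood test, at a Benjamini-Hochberg adjusted p under 0.05, 74.4% differed between MI 7 d and sham (39% higher, 35.4% lower). Between MI 28 d and sham 55.1% differed (29.5% higher, 25.6% lower), and between MI 28 d and MI 7 d 55.2% (29.1% higher, 26.1% lower).

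The library that carried Vat1l was also the highest in the summed levels of mesothelial and of Schwann cell markers. The 6 mesothelial markers, genes of the lining of the heart surface and body cavities, summed to 7.50 to 9.21 CPM in sham, 26.4, 58.6 and 146 CPM at MI 7 d, and 113, 135 and 783 CPM at MI 28 d. The mesothelial gene Upk3b was at 293 CPM in MI 28 d replicate 3. The myelin gene Mbp was at 108 CPM in that library and at 2.70 to 23.5 CPM in the other 8. The 6 Schwann cell markers, Mbp among them, summed to 128 CPM there and to 17.1 to 34.2 CPM in the other 8 libraries; of 6 tested, 2 were higher and 3 lower than sham at MI 7 d, and 2 higher and 1 lower at MI 28 d. Without Mbp the other 5 summed to 20.1 CPM there and to 10.4 to 18.4 CPM in the others. The Schwann cell markers Gfra3 and Cdh19 were not highest there, at 1.16 and 4.52 CPM against means of 2.31 and 5.64 in sham. Within MI 7 d, Vat1l and the mesothelial sum had the same order of libraries; within MI 28 d they did not, since replicate 1 was above replicate 2 for Vat1l and below it for the mesothelial sum. Of the mesothelial markers 5 of 6 were higher than sham at MI 7 d and 6 of 6 at MI 28 d by edgeR's test. The part of these markers in the Vat1l level was not tested.

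**Figure D2:**
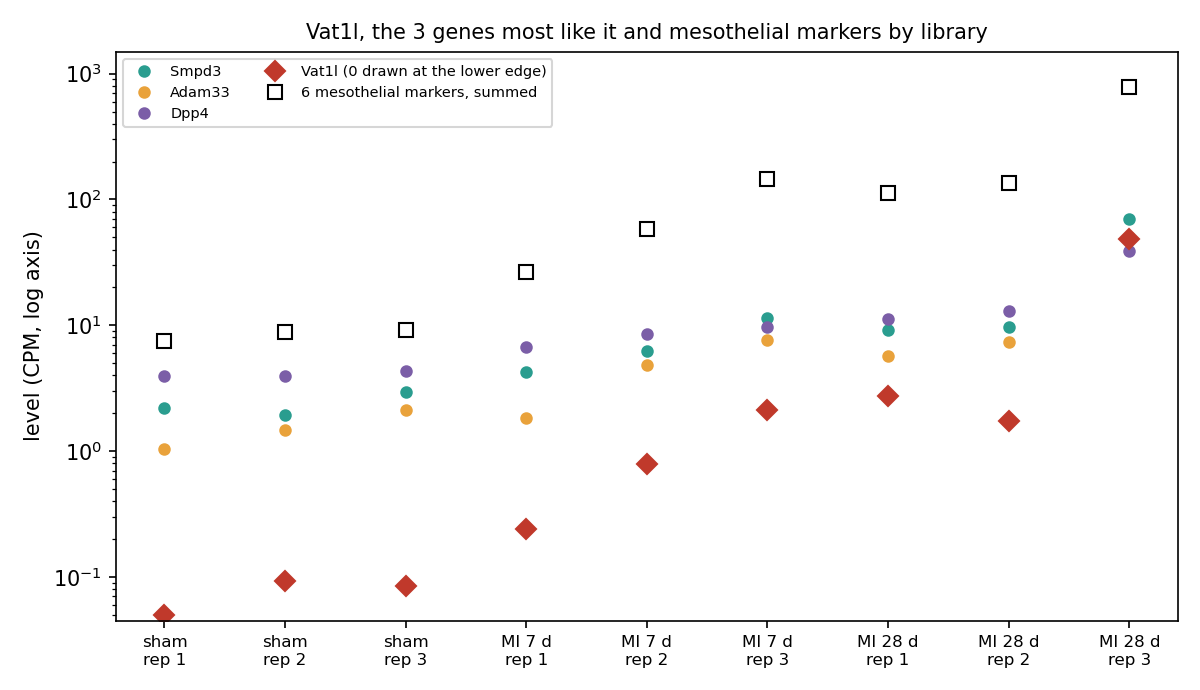
Level of Vat1l, of the 3 genes whose pattern was most like it and of 6 summed mesothelial markers in each library, in CPM on a log axis; a Vat1l value of 0 is drawn at the lower edge. Each series is highest in MI 28 d replicate 3, where Vat1l is at 48.6 CPM and the mesothelial sum at 783.

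Levels of different genes were compared per kilobase of exon, since longer transcripts collect more reads. At MI 7 d Npy was highest at 9.32 ± 3.15 CPM per kilobase (SD, n = 3), followed by Slc1a6 at 6.55 ± 1.23 and Fam26f at 4.31 ± 0.122. Creg2 at 1.09 ± 0.107 and Stra6l at 0.792 ± 0.246 followed, and Vat1l was lowest at 0.192 ± 0.177. The neighbouring pairs Npy and Slc1a6, and Creg2 and Stra6l, did not differ beyond their spread. At MI 28 d the order was Vat1l (3.24 ± 4.90), Fam26f (1.07 ± 0.287), Slc1a6 (0.250 ± 0.0841), Npy (0.173 ± 0.212), Creg2 (0.131 ± 0.0476) and Stra6l (0.0113 ± 0.0105). There Fam26f stood clear of Slc1a6, and Creg2 of Stra6l, by more than their spread, and the other neighbours in that order did not. The exons come from the GENCODE M21 annotation, in which the union of exons runs from 566 bases for Npy to 9567 for Stra6l.

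A near-silent start was not particular to the 6 genes. Of the 24964 genes in the table, 274 had at most 10 reads over sham and at least 100 over MI 7 d or MI 28 d. The 6 genes are among these 274. Of these, 21 had no sham read. Ordered by MI 7 d counts, Creg2 (411), Npy (327) and Fam26f (291) were the first 3 of the 21. The next was the gap junction gene Gjb5 (249), which was not among the 6 chosen genes. The choice was not a cut on this order, since Slc1a6, Vat1l and Stra6l had sham reads. Slc1a6 was 6th of the 274 by MI 7 d counts, and Vat1l 13th by MI 28 d counts.

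Among the 274 genes, 178 had the higher mean at MI 7 d and 96 at MI 28 d, and the median ratio of MI 7 d to MI 28 d was 1.84. By this ratio of mean CPM, Stra6l (70.3) was 2nd, Npy (53.9) 3rd, Slc1a6 (26.2) 8th, Creg2 (8.36) 41st and Fam26f (4.03) 76th. Vat1l, at 0.0594, was 272nd. Of the 115 genes of this class that reached 100 reads at MI 28 d, 82 were highest in MI 28 d replicate 3, and 30 had over 80% of their level in 1 library, as Vat1l did.

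**Figure D3:**
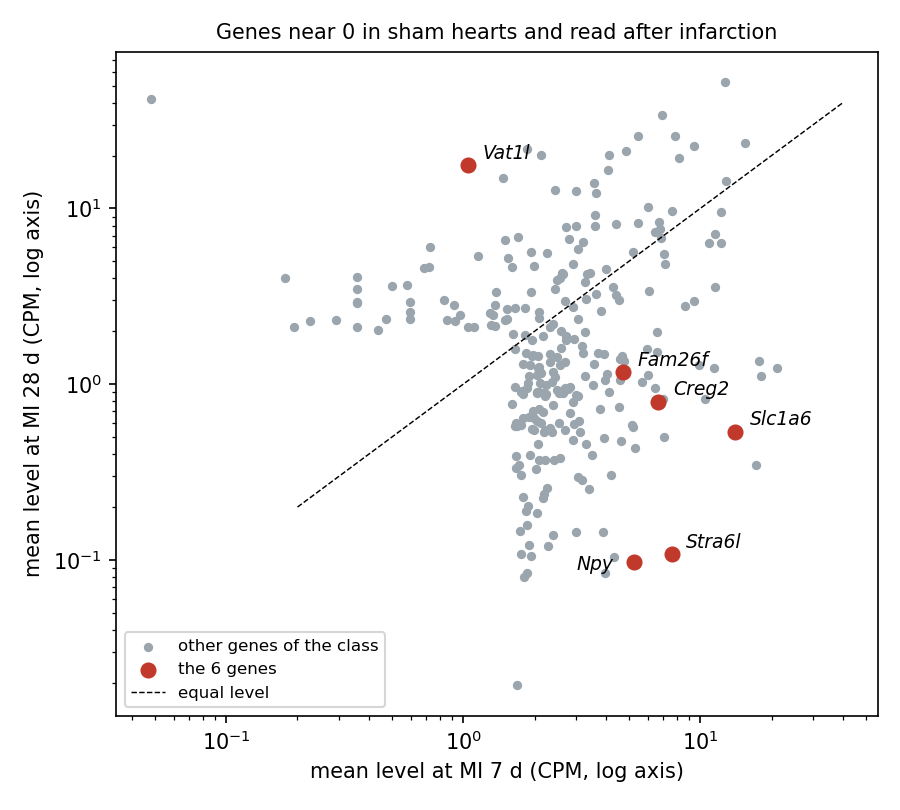
Mean level at MI 7 d (horizontal) and MI 28 d (vertical), in CPM on log axes, of the 274 genes with at most 10 sham reads and at least 100 reads at MI 7 d or MI 28 d; the dashed line marks equal levels. Stra6l, Npy and Slc1a6 lie far below the line, Creg2 and Fam26f nearer to it and Vat1l above it.

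Across the 9 libraries the log2 CPM of the 5 genes highest at MI 7 d had Pearson correlations of 0.760 to 0.986 with each other, and those of Vat1l with them ran from -0.108 to 0.453. The libraries share their 3 groups, so these are descriptions. The genes most like Creg2 were Col8a1, a short-chain collagen (r = 0.998), the Wnt inhibitor Sfrp1 (0.997) and the leukocyte antigen Cd52 (0.997). Those most like Npy were the lysosomal enzymes Lgmn (0.995) and Man2b1 (0.994) and the actin gene Actb (0.995). For Slc1a6 they were Srpx2, Gpc4 and Cyth4 (0.996 to 0.997). For Fam26f they were H2-DMa, which loads peptides onto class II molecules (0.998), and the matrix genes Mfap4 (0.997) and Bgn (0.996).

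Such likeness was widely shared: 1087 genes had r over 0.95 with Creg2, 1108 with Slc1a6, 858 with Fam26f, 709 with Npy and 226 with Stra6l. The closest to Stra6l were the chemokine receptor Cxcr4 (0.996), Arhgap9 (0.994) and the basement membrane gene Nid1 (0.994), and like Stra6l they were near their sham level at MI 28 d (Cxcr4 at 14 CPM in sham, 90.2 at MI 7 d and 14.1 at MI 28 d). Only 34 genes passed that mark for Vat1l, led by the sphingomyelinase Smpd3 (0.987), Adam33 (0.985) and the peptidase Dpp4 (0.983). All 3 peaked in MI 28 d replicate 3, at 69.9, 50.5 and 38.6 CPM.

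The levels of cell type markers moved between the same groups. Macrophage markers (10 genes) summed to 451 to 512 CPM in sham, 4530 to 5790 at MI 7 d and 801 to 1320 at MI 28 d. Activated fibroblast markers (10 genes) summed to 571 to 611, 17600 to 23500 and 2920 to 4330 CPM. T and NK cell markers summed to 3.05 to 4.87, 25.6 to 32.4 and 8.75 to 17.9 CPM. By edgeR's test all members of these lists that were tested (10, 10 and 8) were higher than sham at MI 7 d, and 10, 10 and 5 at MI 28 d. All 3 lists followed the order of Creg2, Slc1a6 and Fam26f, with MI 28 d between sham and MI 7 d. Interferon-stimulated genes, a class to which Fam26f belongs in immune cells, summed to 367 to 444 CPM in sham, 567 to 656 at MI 7 d and 557 to 849 at MI 28 d, where Fam26f was lower. Of 11 tested, 7 were higher and 1 lower than sham at MI 7 d, and 8 higher at MI 28 d. The part of these cells or signals in the levels of the 5 genes was not tested.

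Markers of sympathetic neurons, the usual source of Npy in the heart, did not share 1 direction. The noradrenaline-forming enzyme gene Dbh was at 8.11 to 9.93 CPM in sham and 1.25 to 2.33 at MI 7 d, when Npy was highest. Th, which encodes the first enzyme of that pathway, had no read in sham and was at 0.337 to 0.545 CPM at MI 7 d. Chga, a protein of secretory granules, was at 0 to 0.0872 CPM in sham, 1.54 to 2.17 at MI 7 d and 0 to 0.174 at MI 28 d, the same order of groups as Npy. Snap25, a protein of transmitter release, had no read in sham or at MI 28 d. Of the 11 markers 5 were tested, with 3 higher and 2 lower at MI 7 d and 2 higher and 1 lower at MI 28 d. The 11 markers summed to 19.2 to 21.8 CPM in sham, 25.3 to 36.3 at MI 7 d and 34.3 to 48.8 at MI 28 d. That rise lay in Tubb3, a tubulin gene, which was at 1.29 to 1.78 CPM in sham, 14.7 to 22.5 at MI 7 d and 20.6 to 32.8 at MI 28 d. The other 10 summed to 17.4 to 20.5 CPM in sham, and lower, to 10.6 to 13.8, at MI 7 d, with 13.7 to 17.8 at MI 28 d. Most of the sham sum lay in Dbh and Stmn2, at means of 8.92 and 9.32 CPM. At MI 7 d those means were 1.83 and 5.17. Of the rest, Phox2a also had a lower mean at MI 7 d. Th, Slc6a2, Snap25, Prph, Chga, Chgb and Gap43 had higher means at MI 7 d than in sham. For Gap43 the means were 0.146 CPM in sham and 1.43 at MI 7 d. The part of these markers in the Npy level was not tested.

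Genes related to the 6 by family or pathway were tested in the same edgeR fit over all genes, and changes below are log2 fold changes against sham unless another comparison is named. Of 57 related genes tested, 26 (45.6%, against 39% of all genes) were higher and 15 (26.3%, against 35.4%) lower at MI 7 d. Higher at MI 28 d were 29 (50.9%, against 29.5%) and lower were 13 (22.8%, against 25.6%). From MI 7 d to MI 28 d 21 (36.8%, against 29.1%) were higher and 14 (24.6%, against 26.1%) lower. Their median log2 fold changes against sham were 0.35 and 0.52, against 0.06 and 0.05 over all genes, and the same with the gene that had no sham read set at its bound. The split of calls depended on scaling: with library size alone, the median of all genes was 0.33 higher at MI 7 d and 0.25 higher at MI 28 d on the log2 scale. Higher calls then made up 67.4% of all calls at MI 7 d in place of 52.5%, and 74% at MI 28 d in place of 53.5%.

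The Npy system held few readable genes apart from Npy. Of 14 genes found, 6 were tested, with 2 higher and 1 lower at MI 7 d, and 5 higher at MI 28 d. Pyy and Ppy, the genes of the related peptides YY and pancreatic polypeptide, had no read in any library. Npy1r, a main vascular receptor for the peptide, was at 1.55 ± 0.853 CPM in sham, 2.35 ± 1.58 at MI 7 d and 5.44 ± 1.10 at MI 28 d (SD, n = 3), so it was not highest when Npy was. Its rise at MI 28 d was 1.81 on the log2 scale (SE 0.58, edgeR adjusted p = 0.0237) and was lost without sham replicate 2 (adjusted p = 0.0863), sham replicate 3 (adjusted p = 0.0877) or MI 28 d replicate 2 (adjusted p = 0.0578). At MI 7 d its log2 difference was 0.60 (adjusted p = 0.374), which passed without MI 7 d replicate 2 (adjusted p = 0.0386).

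The receptor gene Npy4r was lower at MI 7 d by 0.94 (SE 0.39, edgeR adjusted p = 0.0491), a call lost in 7 of the 9 fits that leave out 1 library, namely without any of sham replicates 1, 2 and 3, MI 7 d replicates 1 and 3, and MI 28 d replicates 2 and 3. It was also lost with DESeq2 (adjusted p = 0.107), library size alone (adjusted p = 0.171), no filter (adjusted p = 0.0751), only the libraries compared (adjusted p = 0.0573), the replicate block (adjusted p = 0.0826) and without the libraries rich in Adipoq (adjusted p = 0.0913). Fap, which encodes a membrane peptidase of activated fibroblasts able to trim neuropeptide Y, went from 5.55 ± 1.03 CPM in sham to 32.3 ± 3.65 at MI 7 d and 8.57 ± 0.586 at MI 28 d (SD, n = 3). Its rise was 2.54 at MI 7 d (SE 0.15, edgeR adjusted p = 4.68e-07) and 0.63 at MI 28 d (adjusted p = 0.00649). Dpp4, another peptidase known to cut neuropeptide Y, rose by 2.37 at MI 28 d (SE 0.45, edgeR adjusted p = 0.00182), or by 1.57 without MI 28 d replicate 3, where it was at 38.6 CPM. At MI 7 d its log2 difference was 1.03 (adjusted p = 0.0614), and it passed without any 1 of the MI 28 d libraries (adjusted p = 0.000251 without replicate 3). It passed as well with DESeq2 (adjusted p = 0.0257), library size alone (adjusted p = 0.0258), only the libraries compared (adjusted p = 0.000586), the replicate block (adjusted p = 0.0219) and without the libraries rich in Adipoq (adjusted p = 0.000692).

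Other carriers of the Slc1a family were read in sham hearts, unlike Slc1a6, and they moved in both directions. In the list on glutamate transport and metabolism, 16 of 18 genes were tested, with 6 higher and 4 lower at MI 7 d and 8 higher and 4 lower at MI 28 d. Slc1a3, a glutamate carrier of glia, went from 2.94 ± 0.602 CPM in sham to 31.1 ± 15.5 at MI 7 d and 28.0 ± 13.5 at MI 28 d (SD, n = 3). It rose by 3.40 (SE 0.49, edgeR adjusted p = 0.00015) and 3.24 (adjusted p = 0.000566), and by 2.11 at MI 28 d without the 3 libraries rich in Adipoq. Slc1a4 and Slc1a5, which carry neutral amino acids, rose at MI 7 d by 3.08 and 2.55 (edgeR adjusted p = 2.11e-06 and 1.3e-05). At MI 28 d they rose by 1.74 and 2.76 (adjusted p = 0.000343 and 5.6e-05).

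Slc1a1, a glutamate carrier of neurons and epithelia, fell from 6.24 ± 0.536 CPM to 0.888 ± 0.334 at MI 7 d and 2.06 ± 1.05 at MI 28 d (SD, n = 3). The fall was by 2.80 on the log2 scale (SE 0.38, edgeR adjusted p = 8.53e-05) and by 1.60 (adjusted p = 0.00407), and it was by 2.26 at MI 28 d without the libraries rich in Adipoq. Slc1a2 rose at MI 28 d by 1.66 (edgeR adjusted p = 0.015), a call lost without sham replicate 2 (adjusted p = 0.0568), without sham replicate 3 (adjusted p = 0.0505) and without the libraries rich in Adipoq (adjusted p = 0.0816). Slc1a7 passed at neither time (edgeR adjusted p = 0.0738 and 0.0809), with 0.725 ± 0.241 CPM in sham; without sham replicate 2 it was lower at MI 7 d (adjusted p = 0.0361), and with library size alone higher at MI 28 d (adjusted p = 0.0313).

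Of the partners of these carriers, the cystine and glutamate exchanger gene Slc7a11 shared the near-silent start, with 1 read over sham, 108 at MI 7 d and 28 at MI 28 d (edgeR adjusted p = 6.91e-05 and 0.00333). The vesicular carrier gene Slc17a7 fell by 1.55 at MI 7 d (SE 0.15, edgeR adjusted p = 1.04e-05) and its log2 difference at MI 28 d was -0.18 (adjusted p = 0.315). Got1 and Got2, genes of the malate and aspartate shuttle, fell from 1264 and 1481 CPM to 175 and 226 at MI 7 d. Their log2 fold changes were -2.86 and -2.71 (edgeR adjusted p = 6.7e-07 and 1.9e-06). Cardiomyocyte markers fell between the same groups, and their part in this was not tested.

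Both tested relatives of Fam26f rose at both times. Calhm2 went from 6.02 ± 0.707 CPM in sham to 20.4 ± 0.884 at MI 7 d and 11.8 ± 0.992 at MI 28 d (SD, n = 3). It rose by 1.76 (SE 0.12, edgeR adjusted p = 1.13e-06) and by 0.97 (adjusted p = 0.000226). Fam26e, the gene of another CALHM family channel, went from 3.05 to 17.2 and 13.7 CPM, a rise of 2.5 (SE 0.24, edgeR adjusted p = 7.31e-06) and 2.17 (adjusted p = 0.000114). Neither began near 0. Calhm1 had no read in any library, and Fam26d had 0, 2 and 2 reads over the groups.

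In the list related to Stra6l, on retinol transport and retinoid metabolism, 13 of 22 tested genes were higher and 6 lower at MI 7 d. At MI 28 d 12 were higher and 4 lower. Those lower at MI 7 d were Rxrg, Lrat, Rbp7, Rarb, Rxra and Rxrb. Rxrg fell most, from 114.9 CPM in sham to 8.88 at MI 7 d and 32.3 at MI 28 d. Its log2 fold changes were -3.69 and -1.83 (edgeR adjusted p = 1.6e-07 and 3.6e-05). The genes of this list described next all rose. Stra6, the better known receptor for retinol-binding protein, was at 0.265 ± 0.0905 CPM in sham, 1.31 ± 0.0753 at MI 7 d and 2.18 ± 1.57 at MI 28 d (SD, n = 3). It rose by 2.28 (SE 0.64, edgeR adjusted p = 0.00865) and 3.02 (adjusted p = 0.0028), or 2.31 at MI 28 d without MI 28 d replicate 3, and so did not return to sham as Stra6l did. Dhrs9, a retinol dehydrogenase gene, had 1, 224 and 163 reads over the groups, and Cyp26a1, whose enzyme breaks down retinoic acid, had 1, 204 and 148. Both passed at each time (edgeR adjusted p = 0.000159 and 0.000164 at MI 7 d, 0.000558 and 0.000556 at MI 28 d).

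Crabp2, a carrier of retinoic acid in the cell, had no read in sham, 50 at MI 7 d and 20 at MI 28 d (edgeR adjusted p = 0.00148 and 0.0102). Rbp4, the retinol-binding protein itself, had 4 reads over sham, 21, 14 and 367 at MI 7 d and 138, 54 and 164 at MI 28 d. It was highest in the 3 libraries rich in Adipoq, and adipocytes are known to make it. In MI 28 d replicate 2, where Adipoq was at 0.496 CPM, Rbp4 was at 3.35 CPM, against a mean of 0.1145 in sham. The part of adipocytes in the Rbp4 level was not tested. The rise of Rbp4 was 5.70 on the log2 scale at MI 7 d (SE 1.67, edgeR adjusted p = 0.0111), or 2.78 without MI 7 d replicate 3. At MI 28 d it was 5.88 (adjusted p = 0.014), or 4.73 without the 3 libraries rich in Adipoq, and it was lost without sham replicate 2 (adjusted p = 0.0505).

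The nearest relatives of Vat1l and Creg2 were well read in sham. Vat1 went from 48.1 ± 4.80 CPM in sham to 253 ± 12.9 at MI 7 d and 150 ± 27.6 at MI 28 d (SD, n = 3), a rise of 2.40 (SE 0.14, edgeR adjusted p = 4.62e-07) and 1.64 (adjusted p = 2.7e-05). It was even between libraries, with 122 to 177 CPM at MI 28 d, where Vat1l spanned 28-fold. In its list of 8 genes, 2 were higher and 4 lower at MI 7 d, and 1 higher and 4 lower at MI 28 d. Ptgr1, a prostaglandin reductase gene, rose by 1.94 at MI 7 d (edgeR adjusted p = 1.15e-05). Its relatives Ptgr2, Zadh2 and Rtn4ip1 fell by 1.94, 1.30 and 2.76 (adjusted p = 2.01e-06, 2.83e-07 and 8.7e-07).

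Creg1 was at 158 ± 5.63 CPM in sham, 143 ± 8.56 at MI 7 d and 86.0 ± 7.60 at MI 28 d (SD, n = 3). At MI 7 d, when Creg2 was highest, its log2 difference was -0.14 (edgeR adjusted p = 0.166), or 0.20 with library size alone. At MI 28 d it fell by 0.87 (SE 0.09, edgeR adjusted p = 6.9e-05). M6pr, a receptor that sorts lysosomal glycoproteins, rose by 0.87 at MI 7 d (SE 0.10, edgeR adjusted p = 2.25e-05). Its rise of 0.33 at MI 28 d (adjusted p = 0.0166) was lost without any 1 sham library (adjusted p = 0.0503 to 0.0677) and without the libraries rich in Adipoq (adjusted p = 0.207).

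**Figure D4:**
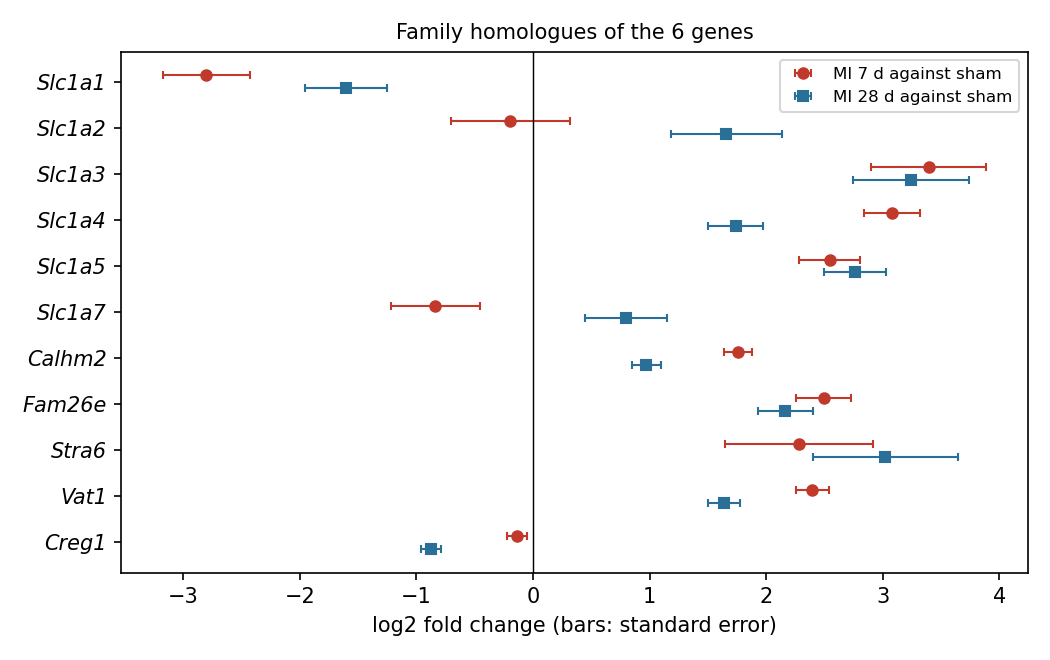
Log2 fold change against sham of the tested family homologues of the 6 genes at MI 7 d (circles) and MI 28 d (squares), with bars for the standard error from edgeR; Npy has no tested homologue. Slc1a3, Slc1a4, Slc1a5, Calhm2, Fam26e, Stra6 and Vat1 lie above 0 at both times, Slc1a1 lies below 0 at both, and Creg1 lies below 0 at MI 28 d.

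The genes lie on 5 chromosomes (GRCm38). Creg2 lies at chr1:39618406-39652052 on the minus strand, Npy at chr6:49822710-49829507 on the plus strand and Slc1a6 at chr10:78780086-78814825 on the plus strand. Fam26f lies at chr10:34126067-34127972 on the minus strand, Vat1l at chr8:114205281-114374074 on the plus strand and Stra6l at chr4:45824293-45887010 on the plus strand. Of the 12 nearest protein-coding genes, 1 on each side of each gene, 5 had enough reads to be tested.

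Rnf149, a ubiquitin ligase gene 40967 bases from Creg2, rose from 7.98 ± 0.866 CPM to 52.1 ± 4.0 at MI 7 d and was at 11.6 ± 1.97 at MI 28 d (SD, n = 3). Its rise was 2.70 (SE 0.14, edgeR adjusted p = 2.7e-07) and then 0.54 (adjusted p = 0.0103), the same order of groups as Creg2. Dse, an enzyme gene of dermatan sulfate 23417 bases from Fam26f, rose from 10.5 to 73.4 and 27.6 CPM, by 2.80 (SE 0.17, edgeR adjusted p = 4.8e-07) and 1.39 (adjusted p = 0.000164), also in the order of its neighbour. Both were well read in sham.

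The other tested neighbours were lower than sham at MI 7 d, when the gene beside each was higher. Of all tested genes, 35.4% were lower at MI 7 d. Nudt7, 50550 bases from Vat1l, fell by 2.20 at MI 7 d and by 1.12 at MI 28 d, and Aldh1b1, 19685 bases from Stra6l, fell by 1.52 and 0.76. Both passed edgeR's test at each time, although Stra6l was near its sham level at MI 28 d. Mpp6, 280721 bases from Npy, fell by 0.55 at MI 7 d (SE 0.18, edgeR adjusted p = 0.019), a call lost with library size alone (adjusted p = 0.357), without sham replicate 1 (adjusted p = 0.0601), without MI 7 d replicate 1 (adjusted p = 0.0563) and without MI 7 d replicate 2 (adjusted p = 0.0662). At MI 28 d its log2 difference was 0.02, and without the libraries rich in Adipoq it was lower, at -0.43 (edgeR adjusted p = 0.00503).

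Genes that overlap 1 of the 6 could share reads with it, since the strand setting of the counting is not given in the sources used here. Igfbpl1, inside the span of Stra6l, had 16, 7 and 2 reads over sham, MI 7 d and MI 28 d, and Ccdc105, which overlaps Slc1a6, had 0, 8 and 3. Both were far below the MI 7 d counts of the genes they overlap. That cannot show how many reads were shared, since the counting settings are not fully given. Of the noncoding genes that overlap Vat1l, 4933408N05Rik had 0, 1 and 1 reads, and Gm30272 was not analysed here, nor was D930019O06Rik, which overlaps Creg2.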

How the data were processed

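Total RNA from 9 mouse hearts was read with 1 library each. Per the submitters' processing notes, reads were trimmed with Trim Galore, aligned with STAR to mm10 and counted with featureCounts; versions, annotation, strand and the treatment of reads with several alignments were not stated there. The authors deposited raw counts for 24964 genes. From these, edgeR 4.0.16 (R 4.3.3) kept 14347 genes with its expression filter (minimum count 10, minimum total 15), applied TMM scaling and fitted a quasi-likelihood model to all 9 libraries, with adjusted p under 0.05. DESeq2 1.42.0 was an alternative. The fit was tested on simulated data. Ratios of members use summed counts over TMM-scaled totals, with exact 95% intervals and a floor of 3 counts. Correlations use log2 CPM with a prior count of 2. Promoters and exons come from RefSeq GRCm38.p6 and GENCODE M21.

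The members and the gene lists were chosen with earlier results of these data known. Named are the 6 members, their homologues, up to 4 others per list past the threshold with the largest change, the nearest protein-coding gene on each side, and the 3 genes most correlated with each member, leaving out predicted genes. Gjb5, Upk3b, Mbp, Adipoq and the neuron markers were singled out after their values were seen. Of the marker genes listed, 2 are not reported here and are in no marker sum. P-values rest on the spread between 3 mice per group. In the main fit that spread is shared by all groups, so a group that is not compared also enters.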

Additional observations from a re-analysis of the deposited data

Results flagged for a closer look

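Between MI 28 d and MI 7 d, 21 of the 57 related genes tested were higher (36.8%, against 29.1% of all genes) and 14 lower (24.6%, against 26.1%) by edgeR's quasi-likelihood test. Of the 33 related and neighbouring genes named by homology, largest change or position, 24 passed, 14 higher and 10 lower. Many were named for a large change, so nothing is read from that count. Values are log2 fold changes of MI 28 d against MI 7 d. Among the relatives of Npy they were 1.05 for Npy4r (edgeR adjusted p = 0.0362), 1.34 for Dpp4 and -1.91 for Fap. Among the relatives of Slc1a6 they were 1.2 for Slc1a1, 1.86 for Slc1a2, -1.34 for Slc1a4, 1.63 for Slc1a7, 1.36 for Slc17a7, -1.57 for Slc7a11, 1.74 for Got1 and 1.52 for Got2.

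For Calhm2, related to Fam26f, the value was -0.79. For the relatives of Vat1l the values were -0.76 for Vat1, -1.42 for Ptgr1, 1.18 for Ptgr2, 0.79 for Zadh2 and 1.45 for Rtn4ip1. For those of Creg2 they were -0.74 for Creg1 and -0.54 for M6pr. Of the neighbours, Rnf149 beside Creg2 had -2.16, Dse beside Fam26f -1.41, Mpp6 beside Npy 0.56, Nudt7 beside Vat1l 1.07 and Aldh1b1 beside Stra6l 0.75.

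With edgeR, several of these calls depended on the setting. The Npy4r call was lost in 6 of the 9 fits that leave out 1 library (without sham replicates 1 or 3, MI 7 d replicates 1 or 3, or MI 28 d replicates 1 or 3). It was also lost with DESeq2 (adjusted p = 0.0915), library size alone (0.0518), no filter (0.0599), only the libraries compared (0.0835) and the replicate block (0.0623). The Dpp4 call was lost without MI 7 d replicate 1 (adjusted p = 0.0704) or 2 (0.053), and its value was 0.55 without MI 28 d replicate 3. The Slc1a1 call was lost without MI 7 d replicate 1 (0.0681) or 2 (0.0792) or MI 28 d replicate 1 (0.101), and the Mpp6 call without MI 7 d replicate 1 (0.0666) or 2 (0.0764). Without the 3 libraries rich in Adipoq the calls of Npy4r (adjusted p = 0.433), Slc1a1 (0.0919), Slc1a2 (0.103), Slc1a7 (0.0529), Mpp6 (0.113) and Aldh1b1 (0.0533) were lost. With only the libraries compared, those of Dpp4 (adjusted p = 0.0543), Slc1a1 (0.0732), Mpp6 (0.0704) and Aldh1b1 (0.0519) were lost, and with library size alone that of Mpp6 (0.0657).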

How the results depend on the processing

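Over 1512 pairs of a tested log2 fold change and an alternative, 1424 kept direction and side of the threshold, 57 lost the call, 15 gained it and 16 changed sign. With library size alone, 6479 genes were higher and 2278 lower at MI 28 d against sham (4233 and 3673 with TMM), and 8 related genes were lower (13 with TMM). Of the sign changes, Slc1a2 at MI 7 d (-0.19) became 0.131 with library size alone, 0.0775 without the libraries rich in Adipoq, 0.00991 without sham replicate 1 and 0.0838 without MI 7 d replicate 3, with a range of -0.651 to 0.0838 over single libraries left out. With library size alone Creg1 at MI 7 d became 0.20 and Slc17a7 at MI 28 d 0.0561. Npy4r at MI 28 d (0.10) became -0.0301 without sham replicate 1, -0.135 without MI 28 d replicate 1 and -0.324 without the libraries rich in Adipoq, with a range of -0.135 to 0.271 over single libraries left out. Mpp6 at MI 28 d (0.02) became -0.0163 with DESeq2, -0.0161 with DESeq2-type size factors, -0.0165 with the replicate block, -0.00904 without sham replicate 2, -0.00359 without sham replicate 3, -0.227 without MI 28 d replicate 3 (highest 0.195) and -0.434 without the libraries rich in Adipoq, the 1 among these sign changes that passed edgeR's test (adjusted p = 0.00503). The cause of these was not tested.

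Leaving out each library in turn gave 5101 to 5834 genes higher and 4721 to 5200 lower at MI 7 d against sham, and 3343 to 4345 and 3166 to 3825 at MI 28 d. Replicate numbers were not treated as pairs of mice in the main fit. Deviations of same-numbered MI 7 d and MI 28 d libraries correlated at -0.091, 0.262 and 0.304, and not every library correlated best with its own number. Same-numbered pairs with sham correlated at -0.025 to 0.021. These values cannot settle whether same-numbered mice were handled together. With the number as a replicate block, 5554 genes were higher and 5029 lower at MI 7 d, and 4082 and 3606 at MI 28 d. The bounds against a sham group at 0 fell when a sham library was left out, because the floor then spans fewer reads: at MI 7 d to 49.5 to 51.7 for Creg2, 39.4 to 41.1 for Npy and 35.1 to 36.6 for Fam26f, and at MI 28 d to 5.84 to 6.09 for Creg2 and 8.61 to 8.98 for Fam26f. The ratios of members without single libraries, those without the Adipoq-rich set, and the marker sums without Tubb3 or Mbp, were chosen after seeing the data. By Spearman correlation the likeness of the named genes to the members was 0.817 to 1. The stricter filter left some of the named low genes untested.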
